A study of Mus musculus with 12 samples.

Results

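The interferon response genes described here are a list of 47 mouse genes that cells switch on when they sense interferon, and they were followed in ear tissue of 2 inbred strains before and after an ear punch. Members were found by matching each probe's annotated gene symbol, current or older, to the list. Probes named for 40 of the 47 members were on the arrays, among 14277 named genes in all. The other 7 members, Ifit1, Ifi203, Trim30a, Xaf1, Ifi44, Iigp1 and Cxcl11, have no probe under their names and were not analysed here. The 40 members are covered by 61 probes, and 16 of them have more than 1. Total RNA of ear tissue was hybridised to 12 Illumina bead arrays, 3 in each of 4 groups: LG/J uninjured, LG/J on day 7 after an ear hole was punched, SM/J uninjured, and SM/J on day 7. LG/J mice are known for closing ear holes well and SM/J mice for closing them poorly, and the comparisons ask how each strain's ear tissue changes after the punch and how the strains differ. The labels give neither the age nor the sex of the mice. Whether the arrays of a group are separate animals is not stated either, so the p-values reflect only the spread between these samples, and that spread may be technical.

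Interferons are secreted proteins that warn tissue of viruses and other microbes. Type I and type III interferons signal through JAK kinases to a complex of STAT proteins and IRF9, which binds interferon-stimulated response elements, and interferon gamma acts through JAK kinases on gamma-activated sites. The genes that follow encode sensors of foreign nucleic acid, enzymes that block viral replication, and GTPases with roles in defence against microbes held in vacuoles. Others encode chemokines that draw T cells and NK cells, and subunits of the immunoproteasome. In skin, keratinocytes, fibroblasts and infiltrating leukocytes can all respond to interferon.

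Promoter sequences of the members show the binding letters of both routes. RefSeq promoters (GRCm38.p6, 250 bases before to 50 bases after each gene's start) were found for 36 of the 47 members, and 11 had no entry: Usp18, Zbp1, Oas2, Ifi204, Mx1, Mx2, Ifi27l2a, Parp9, Parp14, Iigp1 and Cxcl11. The letters GAAANNGAAA, the core of an interferon-stimulated response element, were searched on both strands and stood in 20 of the 36 promoters (55.6%), against 3.99% of the promoters of 27025 genes. The letters TTCNNNGAA, a gamma-activated site and the same on both strands, stood in 10 of the 36 (27.8%), against 9.55% of all. Both motifs stood in 6 member promoters (16.7%, against 0.614% of all), and 12 of the 36 held neither. A match is a description of the letters, not evidence of binding. The stretches below run from base -130 to base 20 around the start, on the gene's own strand, with motif letters in capitals; they show members whose values the results turn on and the kinds of arrangement found.
Isg15: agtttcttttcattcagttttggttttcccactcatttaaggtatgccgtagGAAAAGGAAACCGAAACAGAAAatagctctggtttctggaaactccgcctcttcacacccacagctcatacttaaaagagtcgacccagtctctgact
Oas1g: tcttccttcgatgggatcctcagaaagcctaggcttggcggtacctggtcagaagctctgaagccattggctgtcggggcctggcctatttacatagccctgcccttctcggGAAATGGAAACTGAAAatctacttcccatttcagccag
Rsad2: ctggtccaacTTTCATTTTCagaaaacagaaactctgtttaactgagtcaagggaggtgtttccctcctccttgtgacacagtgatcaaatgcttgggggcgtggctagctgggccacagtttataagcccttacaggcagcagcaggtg
Gbp2: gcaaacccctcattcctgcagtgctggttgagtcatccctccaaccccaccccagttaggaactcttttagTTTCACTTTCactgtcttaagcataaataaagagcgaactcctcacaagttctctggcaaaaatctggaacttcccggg
Igtp: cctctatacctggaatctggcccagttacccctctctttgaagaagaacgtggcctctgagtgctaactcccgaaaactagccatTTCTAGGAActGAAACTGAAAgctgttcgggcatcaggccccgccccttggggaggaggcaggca
Irgm2: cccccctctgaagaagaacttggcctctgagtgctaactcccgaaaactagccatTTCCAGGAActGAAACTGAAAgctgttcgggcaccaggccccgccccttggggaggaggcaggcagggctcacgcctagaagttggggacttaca
Irf1: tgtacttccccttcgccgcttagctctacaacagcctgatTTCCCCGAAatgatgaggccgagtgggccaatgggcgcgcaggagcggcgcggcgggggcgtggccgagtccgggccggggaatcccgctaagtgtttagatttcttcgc
The Isg15 stretch (chr4:156200799-156200948, minus strand) holds 3 overlapping response element matches that start at bases -78, -72 and -66, and the Oas1g stretch (chr5:120887594-120887743, minus strand) holds 2 overlapping ones at -18 and -12. Rsad2 (chr12:26456433-26456582, minus strand) has 1 match at -120 and Gbp2 (chr3:142620533-142620682, plus strand) 1 at -59, both read on the opposite strand as TTTCNNTTTC. In Igtp (chr11:58199426-58199575, plus strand) and Irgm2 (chr11:58214847-58214996, plus strand), 2 GTPase genes of chromosome 11, a gamma-activated site at -45 and -75 is followed, without overlap, by a response element at -34 and -64. Irf1 (chr11:53769884-53770033, plus strand) holds only a gamma-activated site, at -90.

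The arrays report one brightness per probe, which was background-corrected and quantile-normalised and is given as a log2 intensity; levels of different probes are not comparable with each other. A probe counts as dim where it lies below a limit estimated on each array from the lower side of the signal distribution, at 5.75 to 5.83 on the normalised log2 scale. All 61 member probes passed the filter that removed the dimmest 25% of probes, and 24690 features (14218 named genes, each by its brightest probe, and 10472 unnamed probes) were tested. Against the ear label, none of 9 measured keratinocyte markers was below the limit on any array, and at most 1 of 8 cartilage markers was. Between 1 and 9 of the 40 members were below the limit on an array.

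One array stands apart for these genes and has to be named before any result. The mean log2 level of the 40 members was 7.70, 7.77 and 7.37 on the uninjured LG/J arrays and 8.79, 8.92 and 8.55 at day 7. In SM/J it was 7.58, 7.56 and 7.58 without injury, and 9.50, 8.08 and 7.84 at day 7, where the high value is replicate 1. On that array 38 of the 40 members were higher than on both other SM/J day 7 arrays, against 33.6% of all features, the exceptions being Ifi204 and Parp9. Oas3, among the 38, failed the filter on dim probes when that array was left out, so its place among the 40 rests on that array. Its members lay a median of 1.39 log2 units above the mean of the other 2 arrays, and 23 of the 40 lay more than 1 unit above it, a distance that 0.624% of all features reach. The 7 features of all 24690 with the greatest such distance were members: Cxcl9 (4.16), Cxcl10 (3.87), Rsad2 (3.27), Ifit3 (2.95), Cmpk2 (2.66), Irf7 (2.59) and Usp18 (2.55). Of the 100 features with the greatest distance, 22 were members. Members whose promoter holds a response element match lay a median of 1.94 above (17 members, 0.27 to 3.87), and those without one 1.20 above (14 members, 0.63 to 4.16), so the ranges overlap.

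Markers of other cell types were also read on SM/J day 7 replicate 1. The median distance from the other 2 arrays was 0.36 for 15 monocyte and macrophage markers (10 highest of the 3 arrays), 0.32 for 12 neutrophil markers (9 highest), 0.63 for 6 NK cell markers (5 highest), 0.05 for 12 T cell markers, 0.08 for 5 markers of plasmacytoid dendritic cells, 0.06 for 10 genes of RNA quality and stress, and -0.12 for 9 keratinocyte markers. Their part in the result was not tested. The NK cell sum was 6631 on this array and 4102 and 3598 on the other 2, and the macrophage sum 82705 against 80082 and 75352. Interferon gamma itself (Ifng), the product of T cells and NK cells, read 6.15 on this array, just above the limit, and 5.46 and 5.24 on the other 2, below it. LG/J uninjured replicate 4 stood apart over all features. On the first principal component it lay at 2.01, against -51.9 and -49.6 for the other uninjured LG/J arrays. The LG/J day 7 arrays lay at -53.5 to -45.1 and the SM/J arrays at 30.6 to 51.8. Uninjured LG/J replicate 4 thus lay between the strains on that component, and why was not tested. On this array 50% of all features were lowest of the 3 uninjured LG/J arrays (median -0.09). Of the 40 members 32 were the lowest there (median -0.37) and the macrophage and mast cell markers were lower too (medians -1.11 and -1.06). The plot of array departures shows both. The counts of called members in each comparison are therefore also given without SM/J day 7 replicate 1, as are counts of smaller groups that move by more than 1.5 times without it or without LG/J uninjured replicate 4. SM/J day 7 replicate 1 was singled out by its values for these same genes. Leaving it out lowers their spread, so calls and p-values without it describe the remaining arrays and are not independent tests. The SE values given below come from a single estimate of spread shared by the 4 groups. The members' median standard deviation was 0.81 at SM/J day 7 and 0.14 to 0.25 in the other groups. Of the 40 members, 37 had their highest standard deviation at SM/J day 7. The SE and p-values of SM/J changes therefore do not show the full spread of that group.

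**Figure D1:**
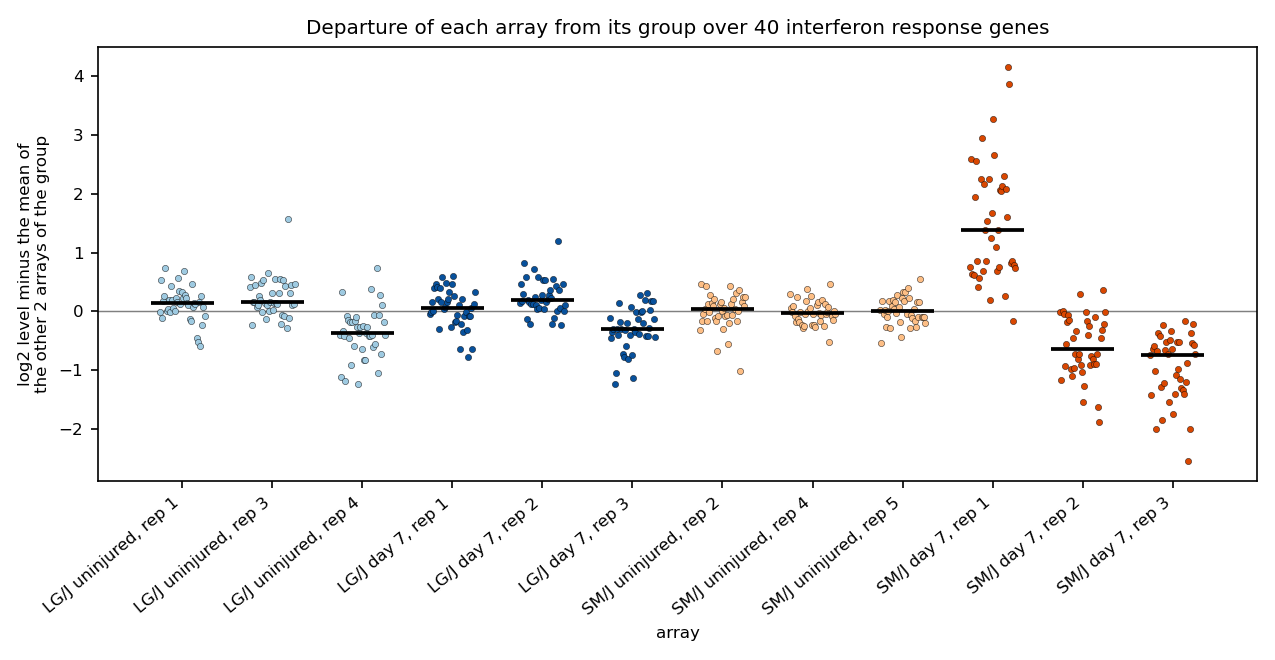
Each point is one of 40 interferon response genes; the y axis gives its log2 level on an array minus its mean on the other 2 arrays of the same group, and black lines are medians. The SM/J day 7 replicate 1 points have a median of 1.39 and reach 4.16, and those of LG/J uninjured replicate 4 have a median of -0.37.

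In LG/J ears the interferon response genes were higher 7 days after the punch. By limma with Benjamini-Hochberg adjustment over all features, 19 of the 40 measured members rose and 0 fell, where 5.44% of all features rose and 4.95% fell. The median change over the members was 0.93 on the log2 scale, against -0.00 over all features. All 3 day 7 arrays lay above all 3 uninjured ones for 31 of the 40 members, as they did for 13.7% of all features. Without LG/J uninjured replicate 4, 12 members rose and 0 fell (5.22% and 5.73% of all features), and without LG/J day 7 replicate 1 or 2, 12 and 9 did. Over all features, leaving out 1 array gave 1410 (without LG/J day 7 replicate 1) to 2765 calls, against 2566 with all arrays. Without SM/J day 7 replicate 1, which enters through the shared normalisation, filter and estimate of spread, 30 of 39 measured members rose, all 19 of the first count among them, where 5.25% of all features rose and 4.55% fell. In whole tissue, more cells of a type and more RNA per cell cannot be told apart.

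In SM/J ears 10 of the 40 members rose and 0 fell, where 5.66% of all features rose and 4.61% fell. The members' median change was 0.95, and the day 7 arrays lay wholly above the uninjured ones for 25 of the 40, against 15.6% of all features. This change rests in large part on replicate 1. Its members lay a median of 1.79 above the uninjured mean, with 28 of 40 more than 1 unit above. Replicate 2 lay 0.51 and replicate 3 lay 0.31 above it, with 6 and 3 members more than 1 unit above, and 10 members on replicate 3 were below all uninjured arrays. Without replicate 1 the median change was 0.42, 7 members rose and 1, Ifi27l2a, fell, where 3.43% of all features rose and 2.43% fell. These 7 (Dtx3l, Ifi47, Oas1g, Oas2, Oasl2, Parp14 and Psmb9) were all among the first 10; Eif2ak2, Irf1 and Psmb8 no longer passed. Without SM/J day 7 replicate 3 instead, 17 rose. Over all features, leaving out 1 array gave between 1447 and 4455 calls in this comparison, against 2534 with all arrays. By contrast the 3 LG/J day 7 arrays lay 1.07, 1.03 and 0.72 above their uninjured mean. With all arrays, 9 members were called in both strains, 47.4% of the 19 in LG/J and 90% of the 10 in SM/J.

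**Figure D2:**
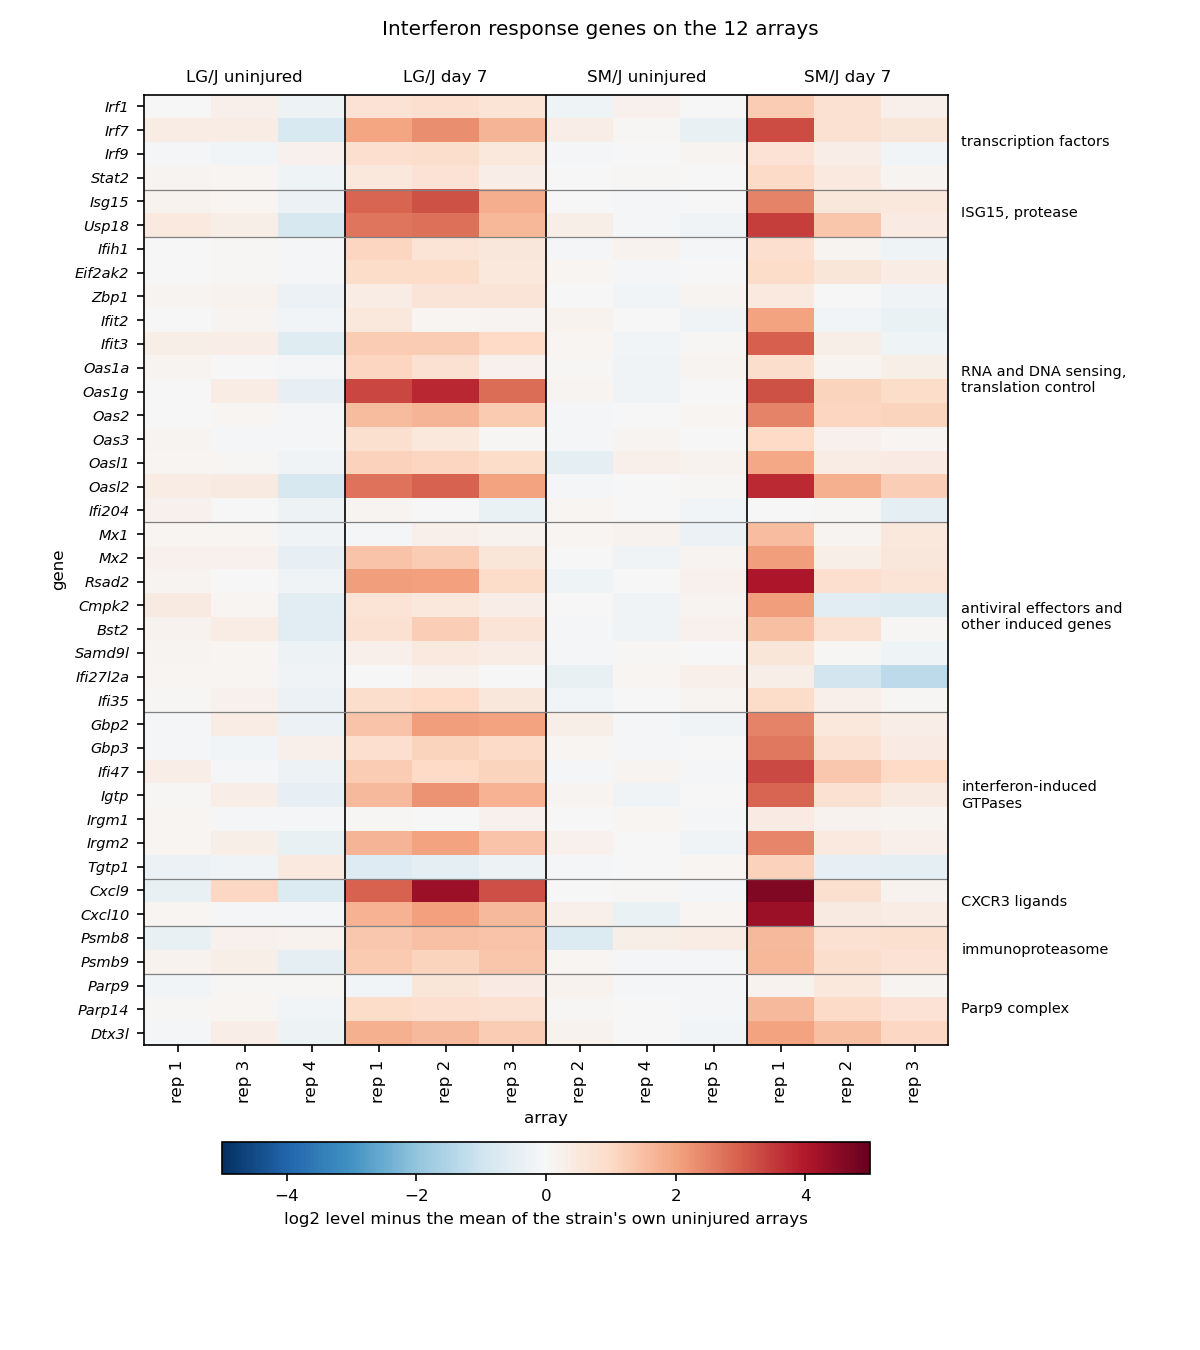
Rows are the 40 measured members grouped by role and columns the 12 arrays; colour gives the log2 level minus the mean of the same strain's uninjured arrays. All 3 LG/J day 7 arrays are red for most rows (medians 1.07, 1.03 and 0.72), and in SM/J the red is deepest on replicate 1 (median 1.79, against 0.51 and 0.31).

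Of the pathway's 4 transcription factors, 3 rose in LG/J (Irf1, Irf7 and Irf9) and 1 in SM/J (Irf1). The counts were 4 and 0 without SM/J day 7 replicate 1, and 1 and 1 without LG/J uninjured replicate 4. Irf7, which amplifies interferon production, read 6.96, 6.98 and 5.85 on the uninjured LG/J arrays and 8.59, 8.90 and 8.29 at day 7. In SM/J it read 6.26, 5.99 and 5.59 and then 9.22, 6.71 and 6.55. Every day 7 array was above its strain's uninjured arrays, and SM/J replicate 1 was the highest of the 12. The change was 2.00 ± 0.54 (SE) in LG/J, 3.99-fold (adjusted p = 0.0312, limma), and 1.55 ± 0.54 in SM/J (adjusted p = 0.0897, limma), which became 0.69 ± 0.32 without replicate 1. The LG/J call was lost without any 1 of the day 7 arrays or uninjured replicate 4 (changes of 1.63 to 2.14, adjusted p = 0.0621 to 0.108, limma), and the SM/J change passed without replicate 3 (2.03, adjusted p = 0.0457, limma). Irf1, the factor downstream of interferon gamma, rose by 0.76 ± 0.22 in LG/J and 0.75 ± 0.22 in SM/J (adjusted p = 0.0389 and 0.0406, limma), and its SM/J change was 0.50 ± 0.20 without replicate 1 (adjusted p = 0.182, limma). The LG/J call of Irf1 was lost when each of 7 arrays was left out, LG/J uninjured replicate 4 among them (0.63, adjusted p = 0.103, limma), and its SM/J call with each of 8, and both were lost with median scaling (0.63 and 0.51, adjusted p = 0.12 and 0.218, limma). Irf9, the DNA-binding part of the STAT complex, rose in LG/J (0.74 ± 0.19, adjusted p = 0.0254, limma) and measured 0.31 ± 0.19 in SM/J (adjusted p = 0.366, limma). The Irf9 call was lost without LG/J uninjured replicate 1 or 3 or day 7 replicate 1 or 2 (0.66 to 0.70, adjusted p = 0.0665 to 0.0984, limma) and with median scaling (0.59, adjusted p = 0.0598, limma). Stat2, its partner, measured 0.53 ± 0.19 and 0.53 ± 0.19 and passed in neither strain, though it did in LG/J without SM/J day 7 replicate 1 (0.53, adjusted p = 0.0464, limma) and in SM/J without replicate 3 (0.73, adjusted p = 0.0267, limma).

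Isg15 and Usp18 had among the largest LG/J changes. Isg15, a ubiquitin-like protein that is joined to other proteins, read 6.98, 6.91 and 6.52 in uninjured LG/J ears and 9.71, 9.997 and 8.63 at day 7. The groups did not overlap, and the change of 2.64 ± 0.44 was 6.24-fold (adjusted p = 0.00181, limma). In SM/J it read 6.70, 6.63 and 6.69 and then 9.16, 7.25 and 7.20; the last 2 arrays lay far below replicate 1 but above the uninjured ones, and the change of 1.20 ± 0.44 did not pass (adjusted p = 0.105, limma). Usp18, the protease that removes ISG15 and dampens receptor signalling, read 8.13, 7.94 and 6.85 and then 10.32, 10.40 and 9.30 in LG/J. Replicate 4 was the low uninjured array, and the change was 2.37 ± 0.58 (adjusted p = 0.0188, limma). The call was lost without that array or without day 7 replicate 1 or 2 (1.98 to 2.19, adjusted p = 0.0591 to 0.0781, limma). In SM/J it went from 7.08, 6.67 and 6.61 to 10.25, 8.18 and 7.21, a change of 1.76 ± 0.58 (adjusted p = 0.0726, limma) that was 0.92 ± 0.41 without replicate 1 and 2.45 without replicate 3, where it passed (adjusted p = 0.0149, limma). It also passed without LG/J uninjured replicate 4 (1.77, adjusted p = 0.042, limma).

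Of the 12 measured members that sense RNA or DNA or control translation, 5 rose in LG/J and 4 in SM/J. Of 11 measured without SM/J day 7 replicate 1, 9 and 3 rose, with Ifit3, Oas1a, Oasl1 and Zbp1 added in LG/J. The 2'-5' oligoadenylate synthetase family, which makes the signal for RNase L to cut RNA, held the largest of these changes. Oas1g read 6.98, 7.31 and 6.56 in uninjured LG/J and 10.28, 10.74 and 9.74 at day 7, a 9.89-fold change (3.31 ± 0.45, adjusted p = 0.000462, limma). In SM/J it read 7.03, 6.72 and 6.91 and then 10.07, 7.99 and 7.82 (1.74 ± 0.45, adjusted p = 0.0258, limma), and without replicate 1 the change was 1.03 ± 0.27 (adjusted p = 0.0407, limma). The SM/J call was lost without uninjured replicate 4 or 5 (1.67 and 1.76, adjusted p = 0.0928 and 0.0764, limma). Each day 7 array was above every uninjured array in both strains, but only SM/J replicate 1 came up to the LG/J day 7 range. Oasl2, a related antiviral protein, read 8.43, 8.48 and 7.23 and then 10.75, 11.001 and 10.08 in LG/J, and 7.13, 7.18 and 7.24 and then 10.93, 8.95 and 8.41 in SM/J. Its changes of 2.56 ± 0.51 and 2.25 ± 0.51 both passed (adjusted p = 0.00562 and 0.0115, limma), the second also without replicate 1 (1.51 ± 0.35, adjusted p = 0.0237, limma).

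Oas2 rose in both strains, its LG/J change being 1.53 ± 0.28 and its SM/J change 1.55 ± 0.28 (adjusted p = 0.00373 and 0.00295, limma). All 3 uninjured SM/J arrays were dim for it, which puts the SM/J rise at at least 2.36-fold, taking the background limit in place of a dim value. Oas1a (0.69 ± 0.22 and 0.44 ± 0.22), Oas3 (0.47 ± 0.23 and 0.44 ± 0.23) and Oasl1 (1.05 ± 0.33 and 0.90 ± 0.33) did not pass in either strain. Oas1a and Oasl1 passed in LG/J without SM/J day 7 replicate 1 (0.69 and 1.06, adjusted p = 0.0398 and 0.00267, limma). Without LG/J uninjured replicate 4, Oasl1 measured 1.59 and 1.81 and passed in both strains (adjusted p = 0.0441 and 0.00882, limma). Eif2ak2, the kinase PKR that halts translation on double-stranded RNA, rose in both (0.78 ± 0.16, adjusted p = 0.00597, and 0.63 ± 0.16, adjusted p = 0.0194, limma), but in SM/J not without day 7 replicate 1 or 2 or uninjured replicate 4 or 5 (0.49 to 0.65, adjusted p = 0.0521 to 0.0984, limma). With median scaling its changes were 0.63 and 0.34 and neither passed (adjusted p = 0.0517 and 0.31, limma). Ifih1, the RNA sensor MDA5, was dim on all uninjured LG/J arrays at 5.54, 5.59 and 5.48 and read 6.60, 6.23 and 6.12 at day 7, at least 1.44-fold higher (adjusted p = 0.0341, limma). Leaving out any 1 of these 6 arrays lost the call (0.63 to 0.88, adjusted p = 0.0519 to 0.144, limma). Its SM/J values of 5.78, 6.05 and 5.83 and then 6.71, 6.01 and 5.69 overlapped. Zbp1, a sensor of left-handed nucleic acid, read 7.01, 7.04 and 6.57 and then 7.23, 7.53 and 7.52 in LG/J (0.55 ± 0.18, adjusted p = 0.0718, limma), and 6.73, 6.61 and 6.85 and then 7.23, 6.75 and 6.57 in SM/J. Its LG/J arrays did not overlap and its SM/J arrays did, and the LG/J change passed without SM/J replicate 1 (0.56, adjusted p = 0.0424, limma).

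The IFIT proteins bind viral RNA, and neither measured member passed in either strain with all arrays. Ifit3 read 9.53, 9.27 and 9.49 without injury and 12.42, 9.72 and 9.23 at day 7, so that replicate 1 stood far above the other 2, which lay close to the uninjured range. Its SM/J change of 1.03 ± 0.58 became 0.04 ± 0.26 without replicate 1. Ifit2 went from 0.50 ± 0.43 to -0.25 ± 0.17, and neither value passed. In LG/J, Ifit3 measured 1.17 ± 0.58 (adjusted p = 0.233, limma) with all day 7 arrays above the uninjured ones, and passed without SM/J day 7 replicate 1 (1.18, adjusted p = 0.00632, limma), while Ifit2 measured 0.25 ± 0.43 with overlapping arrays. A second, dimmer Ifit3 probe read 5.88, 5.74 and 6.25 and then 6.12, 6.09 and 6.04 in LG/J, with overlap. Ifi204, a DNA sensor of the p200 family, was at or near the limit throughout, with changes of -0.07 ± 0.18 and -0.12 ± 0.18.

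Among the 8 measured antiviral effectors and other induced genes, 1 rose in LG/J (Ifi35, 0.81 ± 0.21, adjusted p = 0.0235, limma) and 0 in SM/J. In LG/J 4 rose without SM/J day 7 replicate 1 (Ifi35, Rsad2, Mx2 and Bst2), and without LG/J uninjured replicate 4, 0 did. Ifi35 no longer passed without LG/J day 7 replicate 1 or 2 or uninjured replicate 4 (0.67 to 0.78, adjusted p = 0.0678 to 0.0891, limma). Rsad2, the enzyme viperin, read 7.45, 7.32 and 7.13 and then 9.39, 9.34 and 8.24 in LG/J, and 6.56, 6.73 and 6.98 and then 10.79, 7.59 and 7.45 in SM/J. SM/J replicate 1 was its highest array of the 12, and its other 2 day 7 arrays lay below all LG/J day 7 arrays. The changes were 1.69 ± 0.64 and 1.85 ± 0.64 (adjusted p = 0.118 and 0.0868, limma), and without SM/J replicate 1 they were 1.70 ± 0.26 and 0.77 ± 0.29 (adjusted p = 0.00125 and 0.161, limma). Without SM/J replicate 3 the SM/J change of Rsad2 passed (2.45, adjusted p = 0.0409, limma). Cmpk2, a mitochondrial nucleotide kinase, read 7.36, 7.16 and 7.44 in uninjured SM/J ears and 9.41, 6.80 and 6.71 at day 7. Ifi27l2a, an interferon-induced membrane protein, read 13.09, 13.56 and 13.72 and then 13.75, 12.55 and 12.17 in SM/J. Without replicate 1 it fell by 1.09 (SE 0.19, adjusted p = 0.00508, limma), while it measured 0.05 ± 0.30 in LG/J. Mx2 and Bst2 (tetherin, which holds budding virus at the cell surface) measured 1.10 ± 0.37 and 0.89 ± 0.32 in LG/J, and Samd9l 0.36 ± 0.18, none past the threshold, though Mx2 and Bst2 passed without SM/J replicate 1 (1.11 and 0.90, adjusted p = 0.00803 and 0.0462, limma). Mx1, the GTPase that restricts influenza virus, was dim on all uninjured arrays of both strains and read 7.07, 5.63 and 6.02 in SM/J at day 7.

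The interferon-induced GTPases, which have roles in defence against microbes held in vacuoles, included 3 called members in LG/J and 1 in SM/J. Without SM/J day 7 replicate 1 the counts were 5 and 1, and without LG/J uninjured replicate 4 they were 1 and 2. Gbp2 read 8.88, 9.34 and 8.69 and then 10.38, 11.05 and 10.999 (1.84 ± 0.43, adjusted p = 0.0135, limma). Igtp read 8.25, 8.55 and 7.79 and then 9.83, 10.44 and 9.93 (1.87 ± 0.46, adjusted p = 0.0196, limma), and Irgm2 changed by 1.72 ± 0.42 (adjusted p = 0.0185, limma). These 3 passed in LG/J, of 7 measured, while Irgm1 (0.09 ± 0.13) and Tgtp1 (-0.44 ± 0.34) had overlapping arrays by their main probes. Gbp3 read 8.57, 8.54 and 8.93 and then 9.52, 9.81 and 9.65 in LG/J. In SM/J it read 8.04, 7.91 and 7.92 and then 10.60, 8.73 and 8.36. With all arrays it passed in neither strain. In LG/J it passed without SM/J day 7 replicate 1 (0.99, adjusted p = 0.00149, limma), and in SM/J without LG/J uninjured replicate 4. A second Irgm1 probe, much dimmer than the first, read 7.70, 7.74 and 7.46 and then 8.92, 9.04 and 8.80 in LG/J, and 7.80, 7.76 and 7.71 and then 10.07, 8.36 and 7.91 in SM/J. It did not overlap in either strain, and its changes of 1.29 ± 0.38 and 1.03 ± 0.38 had adjusted p = 0.0522 and 0.116 in a limma fit over all probes. The Irgm2 call was lost without uninjured replicate 4 or day 7 replicate 1 or 2 (1.54 to 1.71, adjusted p = 0.0523 to 0.0752, limma). The calls of Gbp2 and Igtp were lost without day 7 replicate 2 or 3, and that of Igtp also without uninjured replicate 4 (Gbp2 1.71 and 1.74, adjusted p = 0.0569 and 0.0552, and Igtp 1.67 to 1.93, adjusted p = 0.0519 to 0.0816, limma). In SM/J, Gbp2 went from 9.38, 8.99 and 8.91 to 11.58, 9.60 and 9.44, and Igtp from 7.51, 7.22 and 7.40 to 10.28, 8.16 and 7.81. Their SM/J changes of 1.11 ± 0.43 and 1.37 ± 0.46 did not pass, and were 0.43 ± 0.24 and 0.61 ± 0.24 without replicate 1, while Igtp passed without replicate 3 (1.85, adjusted p = 0.0267, limma). Ifi47 was the member called in SM/J and not in LG/J. It read 7.18, 7.35 and 7.14 and then 10.52, 8.56 and 8.21 in SM/J (1.88 ± 0.42, adjusted p = 0.0108, limma), and it passed without replicate 1 too (1.18 ± 0.19, adjusted p = 0.00218, limma). In LG/J it was dim at 5.72, 5.36 and 5.14 and read 6.66, 6.39 and 6.53 at day 7, at least 1.67-fold higher (adjusted p = 0.11, and 0.00108 without SM/J replicate 1, limma).

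The chemokines that act on CXCR3, the receptor of activated T cells and NK cells, differed widely between the SM/J day 7 arrays. Cxcl9 read 6.20, 7.60 and 5.86 in uninjured LG/J ears and 9.52, 10.83 and 9.76 at day 7, an 11.2-fold change (3.48 ± 0.85, adjusted p = 0.0179, limma). Without uninjured replicate 1 or 4 or day 7 replicate 2 the change was 3.10 to 3.28 and missed the threshold (adjusted p = 0.0509 to 0.078, limma). In SM/J it read 6.52, 6.56 and 6.45 and then 11.16, 7.31 and 6.69. Replicate 1 was the highest of the 12 arrays, and the other 2 lay below every LG/J day 7 array. The SM/J change was 1.88 ± 0.85 (adjusted p = 0.194, limma) and 0.50 ± 0.46 without replicate 1 (adjusted p = 0.653, limma). The Cxcl9 and Cxcl10 counts were 2 and 0 without SM/J day 7 replicate 1, and 0 and 0 without LG/J uninjured replicate 4. Cxcl10 was dim on all 6 uninjured arrays, 5.26, 5.08 and 5.11 in LG/J and 5.71, 5.11 and 5.56 in SM/J. At day 7 it read 6.90, 7.20 and 6.76 in LG/J, at least 2.24-fold higher (adjusted p = 0.137, limma), and 9.75, 5.92 and 5.83 in SM/J, at least 2.61-fold higher (adjusted p = 0.161, limma). SM/J replicates 2 and 3 were barely above the limit. Without replicate 1 the LG/J change, fitted on dim uninjured values, passed (1.81 ± 0.17, adjusted p = 3.02e-05, limma) and the SM/J change was 0.42 ± 0.19 (adjusted p = 0.261, limma).

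**Figure D3:**
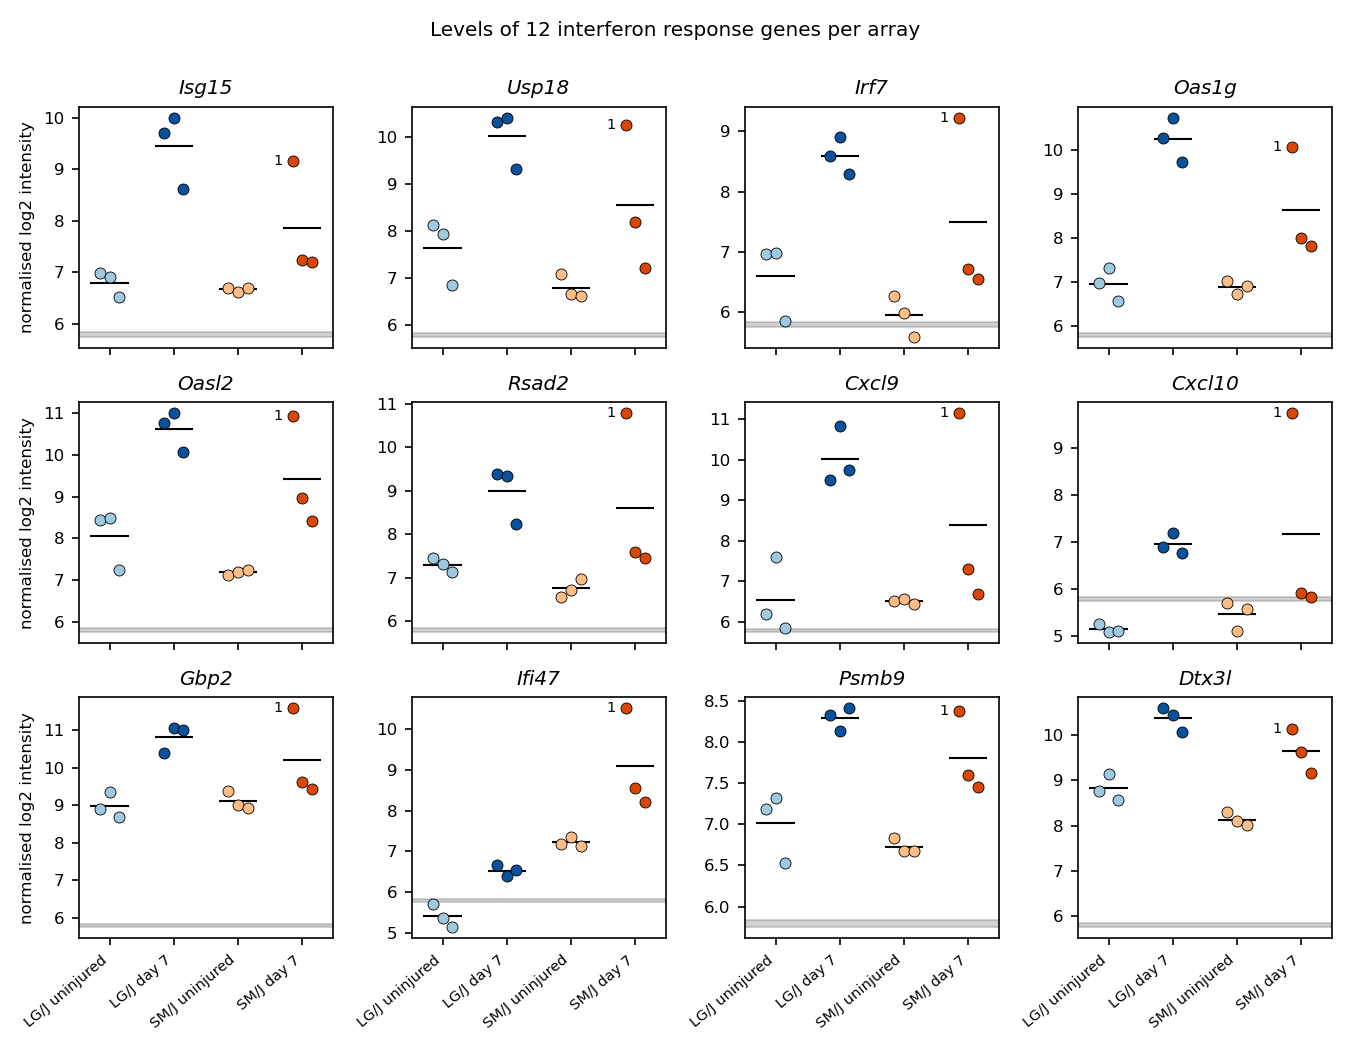
Normalised log2 intensity of 12 members on each array, by group, with group means as lines; the grey band is the range of the background limit over arrays (5.75 to 5.83), and 1 marks SM/J day 7 replicate 1. The 3 LG/J day 7 points cluster above their uninjured points, while in SM/J replicate 1 of genes such as Cxcl10 (9.75) stands far above the other 2 (5.92 and 5.83).

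Changes called in both strains included those of the immunoproteasome and of the Parp9 group. Psmb8 and Psmb9, subunits that replace those of the standard proteasome when peptides are made for antigen presentation, both rose in both strains. Psmb9 read 7.19, 7.32 and 6.53 and then 8.34, 8.14 and 8.41 in LG/J, and 6.84, 6.68 and 6.67 and then 8.38, 7.60 and 7.45 in SM/J. All day 7 arrays were above the uninjured ones, with changes of 1.28 ± 0.24 and 1.08 ± 0.24 (adjusted p = 0.00359 and 0.00956, limma). Psmb8 changed by 1.42 ± 0.28 and 1.06 ± 0.28 (adjusted p = 0.00542 and 0.0277, limma). The SM/J call of Psmb8 was lost without day 7 replicate 1 or uninjured replicate 2 (0.79 and 0.72, adjusted p = 0.134 and 0.0857, limma) and with median scaling (0.78, adjusted p = 0.067, limma). Dtx3l, an E3 ubiquitin ligase that works with the ADP-ribosyltransferase relative PARP9, read 8.77, 9.14 and 8.56 and then 10.60, 10.44 and 10.08 in LG/J, and 8.29, 8.10 and 8.004 and then 10.14, 9.64 and 9.16 in SM/J. Its changes were 1.55 ± 0.23 and 1.51 ± 0.23 (adjusted p = 0.000772 and 0.000743, limma). Without SM/J replicate 1 the second was 1.27 ± 0.21, still called (adjusted p = 0.00337, limma). These values are from the main Dtx3l probe. Another Dtx3l probe, dimmer but above the limit, read 6.56, 6.48 and 6.14 and then 6.61, 6.94 and 6.66 in LG/J. In SM/J it read 6.02, 6.31 and 6.46 and then 6.19, 6.14 and 6.43, with overlap, so the SM/J rise rests on the main probe. Parp14 changed by 0.85 ± 0.19 and 1.11 ± 0.19 (adjusted p = 0.0103 and 0.00162, limma). Parp9 itself measured 0.28 ± 0.18 and 0.30 ± 0.18, with overlapping arrays in both strains.

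**Figure D4:**
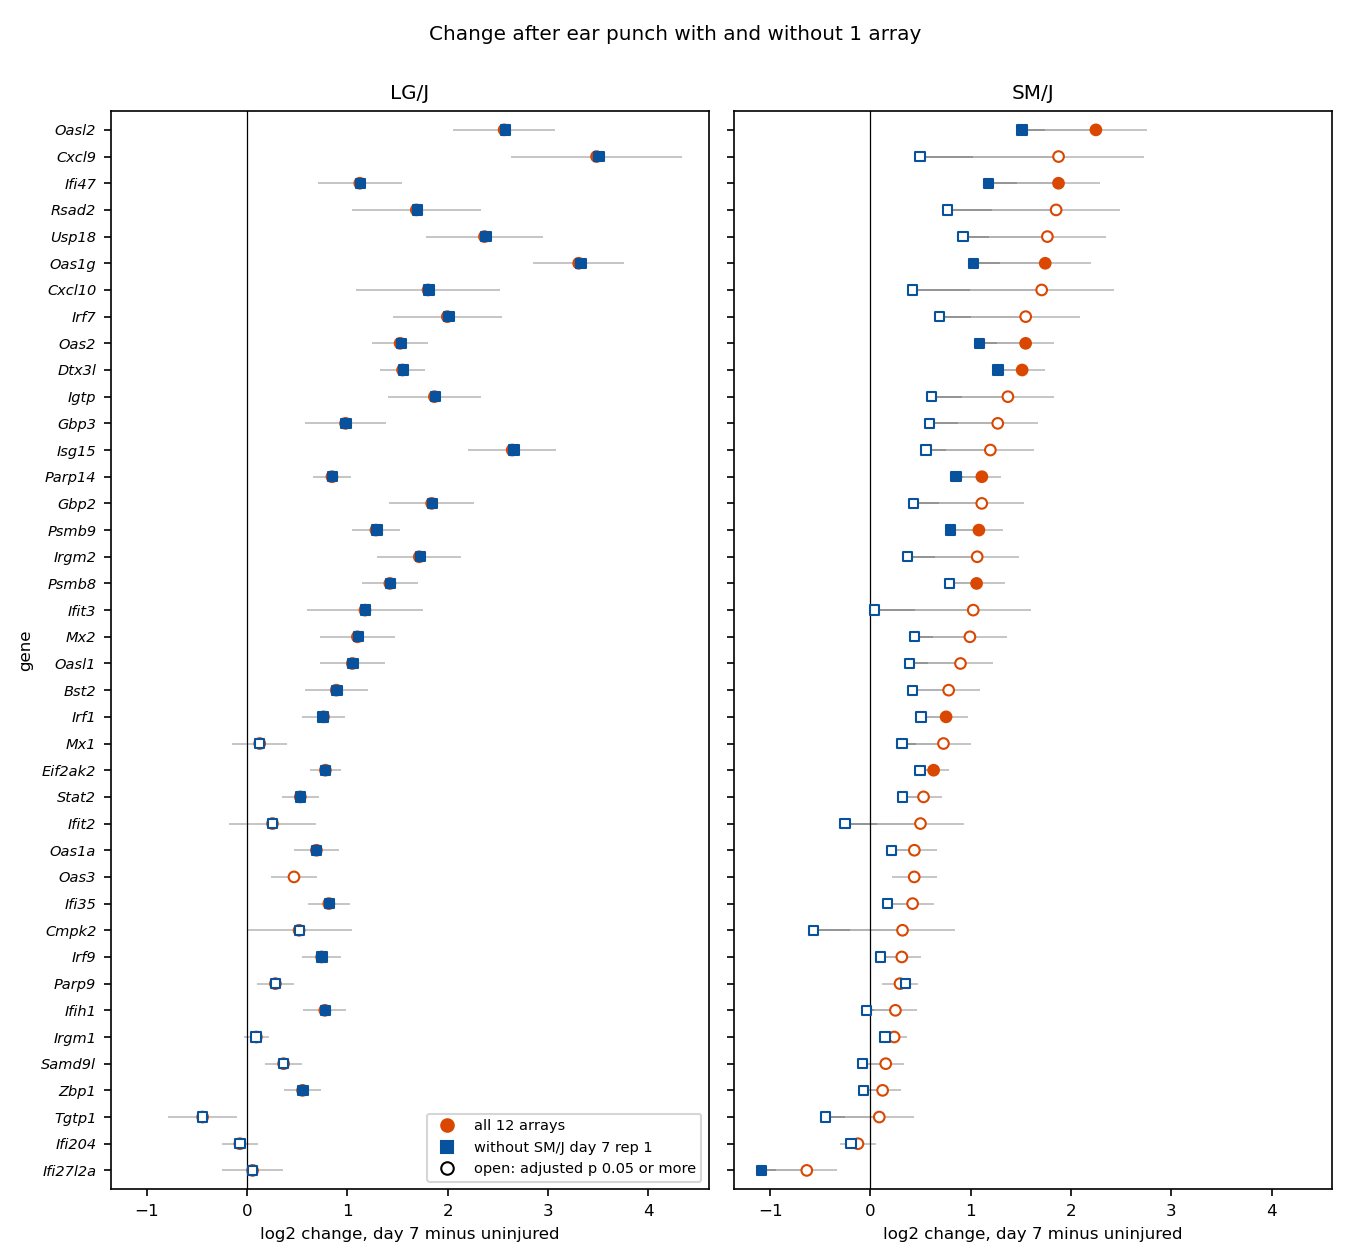
Log2 change from uninjured to day 7 of each of 40 members in LG/J (left) and SM/J (right), with all 12 arrays (circles, with SE bars) and without SM/J day 7 replicate 1 (squares); filled marks have an adjusted p under 0.05. Without that array 38 of 39 SM/J changes are smaller and their median goes from 0.95 to 0.42.

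Whether the injury change differs between strains was tested as an interaction over all features. With all arrays, limma called 0 of the 40 members, where 105 of 24690 features (0.425%) were called. Of all features, 0.0527% had a called difference above 0 and 0.373% one below 0, whether through rises or falls. Among the members, 2 had an unadjusted p under 0.05. The members' median difference (LG/J change minus SM/J change) was 0.15, against 0.01 over all features, and the LG/J change was the higher for 30 of the 40. The members with the lowest p were Oas1g (1.56 ± 0.64, adjusted p = 0.463, limma), Isg15 (1.45 ± 0.62, adjusted p = 0.5, limma), Ifih1 (0.52 ± 0.30, adjusted p = 0.695, limma) and Zbp1 (0.43 ± 0.26, adjusted p = 0.711, limma). Ifih1 was dim on all uninjured LG/J arrays, and its value rests on levels below the limit. Without SM/J day 7 replicate 1 the median difference was 0.64, the LG/J change was the higher for 34 of 39 members, 21 had an unadjusted p under 0.05, and 1 passed: Oas1g (2.30 ± 0.36, adjusted p = 0.0369, limma), where 0.0121% of features were called in that direction and 0.0688% in the other. Isg15 (2.11 ± 0.41, adjusted p = 0.0884, limma) did not pass. Without SM/J day 7 replicate 3 the median difference was -0.10, so 1 array decides its sign. SM/J day 7 replicate 1 was singled out by its values for these very genes, so the values without it describe the remaining arrays only.

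Some members differed between the strains already in uninjured ears. There 3 members were higher in LG/J and 4 lower, where 11.5% of all features were higher and 8.27% lower, so the share of members is near the background. Without SM/J day 7 replicate 1, 8 of 39 were higher and 6 lower, at 11.0% and 7.88% of all features. Without LG/J uninjured replicate 4, 5 were higher and 4 lower, at 20% and 13%, and without any 1 of the other uninjured LG/J arrays or of SM/J uninjured replicates 4 and 5, 0 were higher and 3 lower. Over all features, leaving out 1 array gave 2546 (without SM/J uninjured replicate 4) to 8146 calls, against 4887 with all arrays. With median scaling 5 members were higher and 3 lower, where 4411 of all features were called, 62.9% of them higher. Ifi35, a leucine zipper protein induced by interferon, showed the largest difference of the 40. It read 5.76, 5.89 and 5.40 in uninjured LG/J ears and 8.02, 8.13 and 8.30 in uninjured SM/J ears, a difference of -2.46 ± 0.21 (LG/J minus SM/J, adjusted p = 3.27e-06, limma). At day 7 it read 6.58, 6.68 and 6.24 and 9.07, 8.41 and 8.22, a difference of -2.07 ± 0.21 (adjusted p = 1.69e-05, limma). Of the 3 uninjured LG/J arrays 2 were below the background limit, so the uninjured difference rests partly on levels below it. No LG/J array, injured or not, came up to an SM/J array. Ifi47 was also the lower in LG/J, where it was dim without injury: SM/J was at least 2.7-fold higher (adjusted p = 0.0085, limma). At day 7 the difference was -2.57 ± 0.42 (adjusted p = 0.000858, limma), and without SM/J replicate 1 -1.88 ± 0.19 (adjusted p = 3.61e-05, limma). Samd9l, a restriction factor that halts translation, read 11.54, 11.50 and 11.15 in uninjured LG/J and 12.15, 12.27 and 12.17 in uninjured SM/J (-0.80 ± 0.18, adjusted p = 0.00839, limma). With median scaling in place of quantile normalisation this call was lost (-0.49 ± 0.23, adjusted p = 0.156, limma).

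Mx2, an antiviral GTPase, ran the other way. It read 7.42, 7.41 and 6.78 in uninjured LG/J ears and 5.84, 5.67 and 5.97 in uninjured SM/J ears (1.38 ± 0.37, adjusted p = 0.0189, limma). At day 7 it read 8.62, 8.48 and 7.81 and 7.93, 6.13 and 6.39 (1.49 ± 0.37, adjusted p = 0.0117, limma), with only SM/J replicate 1 inside the LG/J range. Without LG/J uninjured replicate 1 or 3, or SM/J uninjured replicate 4 or 5, the uninjured call was lost, with differences of 1.26 to 1.44. Parp14 (0.68 ± 0.19) and Dtx3l (0.69 ± 0.23) were the other 2 members higher in uninjured LG/J (adjusted p = 0.0204 and 0.047, limma). Their calls too were lost when LG/J uninjured replicate 1 or 3 or SM/J uninjured replicate 4 or 5 was left out (0.53 to 0.71, adjusted p = 0.0657 to 0.192, limma). By the dimmer Dtx3l probe the uninjured arrays of the strains overlapped. The 4th lower member was Psmb8 (-0.90 ± 0.28, adjusted p = 0.0372, limma), and here the probe matters. Its brighter probe read 8.26, 8.86 and 8.83 in uninjured LG/J and 8.87, 9.86 and 9.91 in uninjured SM/J, while its other probe read 6.76, 7.04 and 6.73 against 6.63, 6.78 and 6.71. The probes thus give differences of -0.90 and 0.14. Ifi35, Ifi47, Samd9l and Mx2 have 1 probe each, so their strain differences rest on a single probe.

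**Figure D5:**
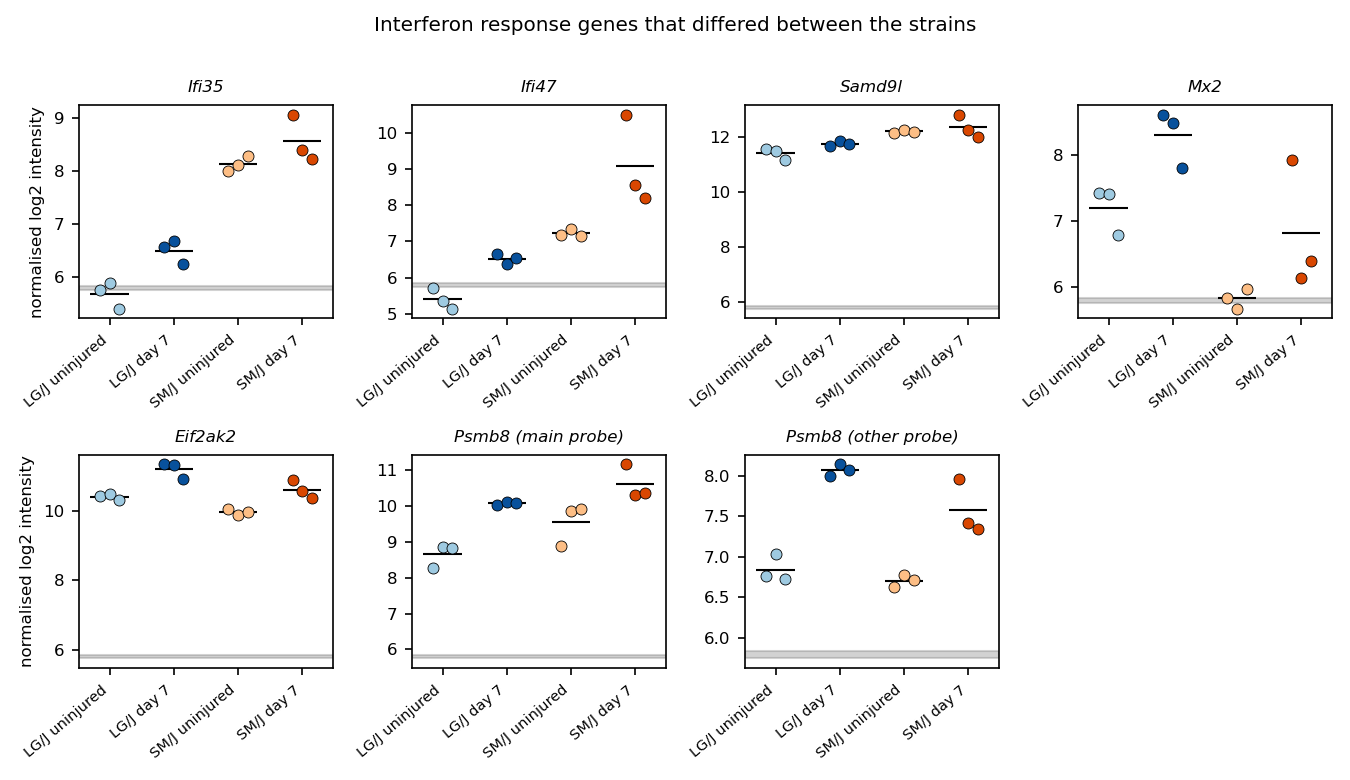
Normalised log2 intensity per array of members that differed between LG/J and SM/J, with both probes of Psmb8; lines are group means and the grey band is the background limit (5.75 to 5.83). Ifi35 reaches 6.68 at most on LG/J arrays and 8.02 at least on SM/J arrays, while the 2 Psmb8 probes order the uninjured strains differently.

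At day 7, 6 of the 40 members were higher in LG/J and 4 lower, where 14.1% of all features were higher and 10.5% lower, so the share of members is near the background in both directions. The members' median difference was 0.42 (0.08 over all features). Eif2ak2 read 11.33, 11.31 and 10.92 in LG/J and 10.88, 10.56 and 10.35 in SM/J, a difference of 0.59 ± 0.16 (adjusted p = 0.0154, limma) with no overlap. The other members higher in LG/J were Mx2, Isg15, Oas1g, Zbp1 and Dtx3l, and those lower were Ifi35, Ifi47, Irgm1 and Samd9l. Of these, Irgm1 was lower by its main probe (-0.44 ± 0.13) and not by its second (0.14 ± 0.38, adjusted p = 0.82, limma). Leaving out 1 day 7 array could lose calls: that of Oas1g and Isg15 without LG/J replicate 1 or 2 or SM/J replicate 2 or 3 (1.23 to 1.60, adjusted p = 0.055 to 0.0877, limma), of Zbp1 without LG/J replicate 2 or 3 or SM/J replicate 2 or 3 (0.44 to 0.53, adjusted p = 0.101 to 0.132, limma), and of Eif2ak2 without LG/J replicate 1 or 2 or SM/J replicate 3 (0.47 to 0.52, adjusted p = 0.0633 to 0.0648, limma). Dtx3l was lost without LG/J replicate 1 or 2 or SM/J replicate 2 or 3 (0.49 to 0.73, adjusted p = 0.0797 to 0.134, limma), and Irgm1 without LG/J replicate 1 or 2 or SM/J replicate 1 (-0.42 to -0.35, adjusted p = 0.0674 to 0.0962, limma). Mx2 missed without SM/J replicate 2 (1.15, adjusted p = 0.0552, limma), and Samd9l without each day 7 array but SM/J replicate 3 (-0.64 to -0.36, adjusted p = 0.0559 to 0.137, limma). SM/J day 7 replicate 1 was singled out by its values for these genes, so values without it describe the remaining arrays only. When it was left out, 23 members were higher in LG/J and 2, Ifi35 and Ifi47, lower, where 8.34% of all features were higher and 6.20% lower, and the median difference was 0.78. Cxcl9 then differed by 3.06 ± 0.46 (adjusted p = 0.000979, limma) and Igtp by 2.09 ± 0.24 (adjusted p = 0.000119, limma). Oasl2, Usp18, Irf7, Gbp2 and Rsad2 were also among the 23. Cxcl10 by its main probe turned from -0.21 ± 0.72 to 1.08 ± 0.19 (adjusted p = 0.00284, limma). By its second probe the LG/J day 7 arrays and SM/J day 7 replicates 2 and 3 were all below the limit, so that probe does not show this difference. Without LG/J day 7 replicate 1, 2 members were higher in LG/J and 2 lower, and without LG/J replicate 2, 1 and 2. Without SM/J replicate 2 the counts were 1 and 4, and without SM/J replicate 3 they were 1 and 5. Over all features, leaving out 1 array gave 3592 (without SM/J day 7 replicate 1) to 8315 calls, against 6083 with all arrays. With median scaling 12 members were higher and 3 lower, the calls of Zbp1, Irgm1 and Samd9l being lost. Over all features that scaling called 5485, 66.1% of them higher. The strain comparisons share arrays with the injury comparisons, so they are not separate evidence.

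Other genes of the pathway, from lists beside the 47 members, place the response around its signal. Of 17 listed ligands and receptors 11 were measured; 2 rose and 1 fell in LG/J, and 3 rose and 0 fell in SM/J, where 0 rose without SM/J day 7 replicate 1 and 5 without LG/J uninjured replicate 4. Ifnar2, a chain of the type I receptor, read 7.56, 7.61 and 6.76 and then 8.04, 7.81 and 7.93 in LG/J and 7.31, 7.03 and 7.31 and then 8.02, 8.24 and 7.90 in SM/J, where it passed (0.83 ± 0.20, adjusted p = 0.0163, limma). Ifnlr1, the receptor chain for interferon lambda, was lower after injury in LG/J (-0.64 ± 0.13, adjusted p = 0.0071, limma). Il18, which drives interferon gamma production, rose by 0.72 ± 0.15 in LG/J and measured 0.42 ± 0.15 in SM/J (adjusted p = 0.00803 and 0.101, limma), and Il27ra, a cytokine receptor chain, rose in both (0.75 ± 0.18 and 0.70 ± 0.18, adjusted p = 0.0169 and 0.0255, limma). The interferon genes Ifnb1, Ifna2, Ifna4 and Ifnk were not measured under those names.

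Of 15 measured genes that sense nucleic acid upstream of interferon, 5 rose in LG/J and 4 in SM/J, and 0 fell. Unc93b1, which carries endosomal Toll-like receptors, changed by 1.54 ± 0.24 and 1.27 ± 0.24 (adjusted p = 0.00131 and 0.00433, limma). Sting1, the adaptor of DNA sensing, changed by 1.32 ± 0.24 and 1.13 ± 0.24 (adjusted p = 0.00299 and 0.0074, limma), and Tlr7, a receptor for single-stranded RNA, by 1.01 ± 0.19 and 0.93 ± 0.19 (adjusted p = 0.00402 and 0.00617, limma). Of 18 measured genes of JAK-STAT signalling and its inhibitors, 5 rose in LG/J and 6 in SM/J, among them Socs3, which inhibits JAK kinases (1.24 ± 0.17 and 1.64 ± 0.17), and Irf8, a factor of myeloid cells (1.86 ± 0.27 and 1.83 ± 0.27, adjusted p = 0.0008 and 0.000733, limma). On SM/J day 7 replicate 1 the sensing genes lay a median of 0.12 above the other 2 arrays and the ligands and receptors -0.02, next to 1.39 for the members.

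A longer list of further interferon-induced genes, 51 of 65 measured, held 22 genes that rose and 0 that fell in LG/J, and 15 and 0 in SM/J, with medians of 0.64 and 0.44. Without SM/J day 7 replicate 1 the counts were 27 and 10. Slfn1, of the Schlafen family, read 5.54, 5.25 and 5.05 and then 6.47, 6.86 and 6.60 in LG/J, and 5.55, 5.45 and 5.74 and then 9.19, 7.54 and 7.44 in SM/J. It was dim in both uninjured groups, and the rise was at least 1.81-fold in LG/J and 4.83-fold in SM/J (adjusted p = 0.0216 and 0.000383, limma). Apol9b, an apolipoprotein L, read 6.15, 6.18 and 5.51 and then 9.04, 9.28 and 7.98 in LG/J (2.82 ± 0.41, adjusted p = 0.000772, limma), and 5.37, 5.66 and 5.55 and then 7.77, 5.96 and 6.16 in SM/J (1.10 ± 0.41, adjusted p = 0.115, limma). On SM/J day 7 replicate 1, 45 of the 51 were the highest of the 3 arrays, with a median distance of 0.50.

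Leukocyte markers rose beside the members, and their part in these results was not tested. Of 15 measured monocyte and macrophage markers 12 rose in LG/J and 7 in SM/J, and their summed intensity went from between 22779 and 46482 to between 65156 and 81595 in LG/J, and from between 48069 and 56411 to between 75352 and 82705 in SM/J. Of 12 neutrophil markers 8 rose and 1 fell in LG/J, and 10 rose in SM/J, with sums of 1981 to 2225 and 15788 to 23413 in LG/J, and of 3534 to 4878 and 60874 to 72439 in SM/J. T cell markers rose for 6 of 12 in LG/J and 3 of 12 in SM/J. Without LG/J uninjured replicate 4 the SM/J macrophage count was 13. NK cell markers rose for 2 of 6 and 1 of 6 (1 and 0 without SM/J day 7 replicate 1), with 0 to 2 of them below the limit on an array. On the 3 SM/J day 7 arrays the neutrophil sums were 72439, 61790 and 60874, and the sums of the interferon members were 82069, 42798 and 37479.

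The members' probes mostly had the same direction. The 16 members with several probes have 21 further probes, and 19 of the 21 had the sign of the main probe in each injury comparison. Of the further probes of called members, 4 of 13 passed in LG/J and 4 of 10 in SM/J. Both Oas1g probes rose in LG/J (3.31 and 2.90) and in SM/J (1.74 and 1.68), as did both of Psmb8 (1.42 and 1.22, then 1.06 and 0.87). In a fit over all probes the second Oasl1 probe passed in both strains (1.86 and 1.82, adjusted p = 0.017 and 0.0187, limma), where the main one did not. Other second probes read far less than the main ones, such as those of Usp18 (0.35 in LG/J, against 2.37) and Gbp2 (0.41, against 1.84). With the mean of a gene's probes the LG/J calls of Irf1, Irf9, Usp18 and Parp14 and the SM/J call of Irf1 were lost, and Oasl1 passed in both strains. Members of the Oas1, Gbp and Irgm families have close relatives, and which transcripts a probe binds was not examined here.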

How the data were processed

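Total RNA from mouse ears was labelled and hybridised to 12 Illumina arrays, per the labels' protocols, and the submitters' processing notes name BeadStudio. As deposited, the array files hold 1 linear intensity per probe for 45281 probes, with no background subtraction or normalisation seen in the values, and no detection p-values. The authors' deposited series table of 28845 probes, normalised by a method not given in the sources used here, served as an alternative. The 12 intensity columns were background-corrected (normexp, offset 16), quantile-normalised and taken to log2. The dimmest 25% of probes were removed, and each gene was read from its brightest probe. One limma model (limma 3.58.1, R 4.3.3) over the 4 groups gave all comparisons, with Benjamini-Hochberg adjustment over 24690 features and a threshold of 0.05. It was tested on simulated data. A dim array counts as a bound at the background limit, the 95% quantile of a curve fitted to the lower side of each array's signals. The number of arrays limits the precision. Genes were named by annotation tables: 23604 probes have 1 gene, 12 several and 21665 none. Named members are the 8 largest changes in each injury comparison, the 4 lowest p-values in each strain comparison and in the difference, and the 3 greatest distances of SM/J day 7 replicate 1, and other members are given by role. Up to 4 genes were named from each pathway list, and the 8 genes outside the lists with the greatest distances on that array. The members and all lists were chosen with earlier results of these data known, and none is independent support.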

Additional observations from a re-analysis of the deposited data

How the results depend on the processing

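Leaving out 1 array at a time gave 9 to 30 called members and medians of 0.86 to 0.99 for LG/J injury, and 7 to 17 members and medians of 0.42 to 1.18 for SM/J injury. For the difference between strains it gave 0 to 1 members and medians of -0.10 to 0.64. For uninjured ears it gave 3 to 14 members (medians 0.10 to 0.26), and for day 7 ears 3 to 25 (medians 0.14 to 0.78). With array weights 17 members were called for SM/J injury, 14 in uninjured ears and 21 at day 7. Calls over all features rose with these weights too, as given below, so these counts are not gains of the members alone. Without both SM/J day 7 replicate 1 and LG/J uninjured replicate 4 the difference called 1 member, uninjured ears 18 and day 7 ears 29. The mean of a gene's probes gave 4 calls in uninjured ears. Departures of same-numbered arrays from their group means were weakly correlated at most (10 pairs, r from -0.093 to 0.186, 1 above 0.1). Pairing could leave little trace in such correlations, so whether the numbers pair the samples is not settled. A replicate block gave 4 calls for SM/J injury and 3 in uninjured ears. Cxcl10 by its main probe reversed at day 7, to 1.08 without SM/J day 7 replicate 1 and 1.08 without both arrays, and leaving out 1 array gave -0.89 to 1.08. Median scaling also lost the LG/J calls of Irf1, Irf9 and Eif2ak2 and the SM/J calls of Irf1, Eif2ak2 and Psmb8. The cause of these moves was not tested.

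Over all 24690 features, array weights called 4344, 5692, 836, 10007 and 9142 for LG/J injury, SM/J injury, the difference, uninjured ears and day 7 ears, and the block 1243, 10 and 2336 for the second to the fourth of these. Without both arrays the difference called 27 features and uninjured ears 8271. Leaving out 1 array gave 1410 to 2765, 1447 to 4455, 14 to 349, 2546 to 8146 and 3592 to 8315. With median scaling 30.1% of LG/J injury calls and 27.7% of SM/J injury calls were rises, against 52.3% and 55.1%, and the members' medians were 0.80 and 0.76, while the median of all features moved to -0.07 in both. The same scaling put the median of all features at 0.10 in uninjured ears and 0.11 at day 7. Of the results for the named members under the alternatives, 1850 kept direction and call, and 44 changed sign without being called in either setting. Another 64 gained a call and 80 lost it. The other 2, both of Cxcl10 at day 7, changed sign and were called only under the alternative. Depth is not defined for these arrays; Oas1a, Oas3, Mx1, Ifi204, Tgtp1 and Parp9 lie near the background limit, which hides small changes.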

Other observations

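Genes outside the 47 members and the pathway lists were also high on SM/J day 7 replicate 1. They were selected by that distance, so the values are a description. Gbp2b, a further guanylate-binding protein, read 8.49, 8.20 and 8.14 in uninjured SM/J ears and 11.13, 8.65 and 8.78 at day 7, and in LG/J 5.86, 5.99 and 5.69 and then 6.77, 6.74 and 6.73. It was thus lower on every LG/J array than on any SM/J array. Fcgr4, an activating receptor for IgG on myeloid cells, read 5.76, 5.73 and 5.88 and then 10.18, 7.94 and 8.24 in SM/J, and 7.20, 7.21 and 6.06 and then 9.59, 9.79 and 9.70 in LG/J, so that every day 7 array was above the uninjured arrays of its strain. Ccl5, a chemokine for T cells and monocytes, read 5.71, 6.13 and 6.17 and then 9.18, 7.58 and 7.25 in SM/J, and 6.34, 6.59 and 5.27 and then 8.57, 8.65 and 8.42 in LG/J. Phf11a read 8.60, 6.72 and 5.98 at day 7 in SM/J and 7.33, 7.19 and 7.13 in LG/J, against 5.32, 5.52 and 5.22 and 5.55, 5.66 and 5.26 without injury. Gm4951 read 8.01, 6.20 and 6.04 at day 7 in SM/J and 6.96, 7.54 and 7.19 in LG/J, against 5.73, 5.87 and 5.72 and 5.87, 6.10 and 5.79 without injury. These 4 genes were higher at day 7 on all arrays of both strains, with SM/J replicate 1 in the lead among the SM/J arrays. Ifit1bl1, a relative of Ifit1, read 7.77, 5.45 and 5.36 at day 7 in SM/J and stayed between 5.09 and 5.58 on the LG/J and uninjured SM/J arrays, below the background limit. Their distances from the other SM/J day 7 arrays were 2.42 for Gbp2b, 2.09 for Fcgr4, 1.89 for Gm4951, 1.76 for Ccl5, 2.25 for Phf11a and 2.36 for Ifit1bl1. The list ended with Ccdc144b (1.65) and B230209E15Rik (1.59), which were not higher at day 7 in LG/J.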
